A study of Mus musculus with 4 samples.

Results

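Neurog1, Neurod1, Insm1, Lhx2, Otx2, Ebf1, Ebf2 and Ebf3 are 8 transcription factor genes of olfactory neurogenesis. They were taken by symbol from the 32285 features of the count tables and read in single cells of the whole embryonic mouse nose, taken at embryonic day 14.5. Of the 13739 cells retained in 4 libraries, 8774 held at least 1 UMI (a tag that marks 1 captured RNA molecule) of at least 1 of these genes. The noses were dissociated with papain, frozen and profiled by 10x Genomics droplet sequencing, which reads transcripts at their 3-prime end.

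The olfactory epithelium makes neurons from dividing basal progenitors throughout embryonic life. The basic helix-loop-helix factors Neurog1 and then Neurod1 act in immediate neuronal precursors. Insm1, a zinc finger repressor, promotes the terminal neurogenic divisions of progenitors. The homeodomain factor Lhx2 is needed for olfactory neurons to mature and to choose receptor genes, whereas Otx2, a homeodomain factor of the anterior head, is active in the epithelium from the placode onward. The Ebf (Olf-1/EBF) proteins bind promoters of genes expressed in olfactory neurons, and the same family acts in mesenchyme, fat and other lineages.

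Control 1 and control 2 are titled wild type. The labels give them as C57Bl/6J, while the series design gives yap flox/flox;taz flox/flox noses without Cre, and this disagreement was not settled. Mutant 1 and mutant 2 are labelled as carrying Sox10-Cre with floxed Yap and Taz alleles on C57Bl/6J, given in the design as Sox10cre;yap flox/WT;taz flox/flox, so that 1 Yap allele stays wild type. The Sox10 promoter drives Cre in the neural crest and the glia it forms. Sox10 itself was at 0 to 2.61 CPM (a gene's UMIs scaled to all UMIs of the same cells) in the neuronal gate and at 241 to 363 CPM in glial cells, whose gate has Sox10 among its own markers. The labels speak of 2 noses per group, so each test below measures only the spread between 2 libraries a side.

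The targeted genes do not check the labels, because 3-prime reads need not fall in the deleted exons. Over all cells Yap1 was at 65.0 and 65.2 CPM in control libraries and at 56.4 and 56.0 CPM in mutant-labelled libraries, and Wwtr1 (Taz) at 118 and 145 against 123 and 132 CPM. Retained cells numbered 2474 to 4195 per library, with median depths of 5282 to 8549 UMIs, and libraries shared 4 to 8 cell barcodes per pair. Control 2 was the smallest library and held few olfactory cells, with 12 neuronal cells against 29 to 43 in the other libraries.

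Cells were gated by detected marker genes that exclude the 8 factors. A neuronal cell had at least 4 of 10 neuronal markers (Tubb3, Stmn2, Dcx and others), and an epithelial, mesenchymal, endothelial, glial, muscle or macrophage cell had at least 3 markers of its own list. This gave 114 neuronal, 1065 epithelial and 10229 mesenchymal cells. Neuronal or epithelial cells with at least 2 olfactory genes (Emx2, Fezf1, Pax6, Cyp2g1 and others), and more of these than of keratinocyte genes, were called olfactory-type and numbered 226. The neuronal gate was mostly olfactory by this rule, since 90 of its 114 cells were olfactory-type, while genes of forebrain neurons (Tbr1, Neurod6, Gad1 and others) summed to only 19.3 to 59.8 CPM there, with 3 or 4 of the 7 at 0. Of the 114 neuronal cells, 68 also passed the epithelial gate.

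Promoter sequence was matched to 6 of the 8 genes in RefSeq (GRCm38.p6), and Insm1 and Ebf2 are named only. The 3 stretches below are shown because the first 2 belong to Neurog1 and Neurod1, both found in few cells. In olfactory-type cells cut to equal depth, Neurog1 was in 3 cells, all of which had Neurod1, and Neurod1 was in 12. The third belongs to Otx2, which had a different distribution over the gates. Each is the 250 bases before a transcription start, 5′ to 3′ on the gene's strand. Capitals mark matches, on either strand, to an E-box (CANNTG, the general site of basic helix-loop-helix factors), to TAATTA (a core bound by LIM and related homeodomains) or to TAATCC (the core bound by Otx-type homeodomains).
Neurog1: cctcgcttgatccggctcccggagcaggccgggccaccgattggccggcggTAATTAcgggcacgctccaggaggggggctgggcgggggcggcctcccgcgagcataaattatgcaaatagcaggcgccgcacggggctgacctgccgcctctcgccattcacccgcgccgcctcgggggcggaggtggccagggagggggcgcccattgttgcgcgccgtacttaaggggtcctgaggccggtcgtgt
Neurod1: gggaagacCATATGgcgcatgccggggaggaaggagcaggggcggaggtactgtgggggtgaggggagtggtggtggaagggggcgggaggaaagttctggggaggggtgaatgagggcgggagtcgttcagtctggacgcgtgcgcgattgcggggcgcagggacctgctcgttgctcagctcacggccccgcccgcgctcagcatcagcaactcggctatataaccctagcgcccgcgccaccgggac
Otx2: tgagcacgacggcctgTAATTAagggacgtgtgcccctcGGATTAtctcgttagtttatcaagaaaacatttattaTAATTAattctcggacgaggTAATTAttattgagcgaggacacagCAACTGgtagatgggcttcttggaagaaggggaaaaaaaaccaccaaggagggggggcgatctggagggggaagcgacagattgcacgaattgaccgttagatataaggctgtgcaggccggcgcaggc
They lie on the minus strand at chr13:56252181-56252430 for Neurog1, chr2:79456637-79456886 for Neurod1 and chr14:48665110-48665359 for 1 of the 4 Otx2 starts listed. The Neurod1 stretch holds 1 E-box, CATATG, at 242 to 237 bases before the start, and 3.46% of all 32851 promoters of this length hold that word, against 66.2% for any CANNTG. In the Neurog1 stretch there was 1 TAATTA and no E-box. The Otx2 stretch has TAATTA in 3 places, a word that 4.84% of promoters hold, beside 1 TAATCC match, which 6.25% hold, and 1 E-box. It is shown because it held the most matches of the 4 Otx2 promoters, of which the others held TAATTA in 0, 0 and 1 places and no TAATCC. The palindrome bound by Ebf dimers, which 0.779% of promoters hold, was in none of the 11 promoters of the 6 genes. These are matches of letters and not sites shown to be bound.

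In GRCm38 (GENCODE M21) Neurog1 lies on chromosome 13 from 56250478 to 56252163, Neurod1 on chromosome 2 from 79452521 to 79456751, Insm1 on chromosome 2 from 146221921 to 146225020 and Lhx2 on chromosome 2 from 38339281 to 38369733. Otx2 is on chromosome 14 from 48657677 to 48673819, Ebf1 on chromosome 11 from 44617317 to 45008091, Ebf2 on chromosome 14 from 67233292 to 67430918 and Ebf3 on chromosome 7 from 137193673 to 137314445. All but Neurog1 and Insm1 overlap a gene on the opposite strand. Whether counting used strand is not given in the sources used here, so reads of such partners may not be fully told apart.

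Neurog1, the proneural factor of immediate precursors, was the scarcest of the 8. It gave 17 UMIs in all libraries together, of which 10 were in neuronal and 3 in olfactory-type epithelial cells. Neuronal cells held 7 and 0 UMIs in the control pair and 0 and 3 in the mutant pair, which is 9.01, 0, 0 and 5.48 CPM. One library of each group was at 0, where 0 of 12 cells in control 2 allows a share of up to 25.0% and 0 of 29 cells in mutant 1 a share of up to 10.3%. Such limits are on cells with a UMI, not on cells that express the gene. The mean level was 3.62 ± 4.42 CPM (SD, n = 4) in neuronal cells and 1.23 ± 1.78 CPM in olfactory-type epithelial cells, ranges that overlap. No other gate except mesenchyme, with 1 UMI, held any, and macrophages, taken as the measure of free RNA, had 0 UMIs in 227 cells. Neurog1 was too low to be tested in any comparison.

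Neurod1, the neuronal differentiation factor that follows Neurog1, was measured in neuronal cells at 48.9 and 0 CPM in the control pair and at 28.7 and 56.7 CPM in the mutant pair. These levels rest on 80 UMIs in 14 cells, and a single cell gave 19 of the 38 UMIs of control 1. The mean was 33.6 ± 25.3 CPM (SD, n = 4), and it overlapped the 15.6 ± 25.6 CPM of epithelial cells that were neither olfactory- nor keratinocyte-type. Neurod1 was 7.56 ± 0.88 (SE) higher on the log2 scale in neuronal than in mesenchymal cells, with an edgeR adjusted p of 6.43e-06, and 4.48 ± 0.82 higher than in epithelial cells, adjusted p 0.000857. Mesenchyme, with 12 UMIs, could not bring Neurod1 into the test, so that the filter on low counts set the first direction. Epithelium, with 20 UMIs, could not have done so alone.

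Insm1 was detected in every library. Neuronal cells had 112 and 147 CPM in control libraries and 154 and 96.9 CPM in mutant-labelled libraries, so that the groups overlap. The neuronal mean of 127 ± 27.4 CPM (SD, n = 4) stood apart from the 52.1 ± 20.5 CPM of olfactory-type epithelial cells, with no overlap between libraries. That second level overlapped the 22.1 ± 20.1 CPM of the remaining epithelial cells, and every other gate lay at 1.37 CPM or less. Insm1 was thus present on both sides of the line between epithelial and neuronal gates. It was found in 58.9% ± 8.42 (SD, n = 4) of neuronal cells and, with cells thinned to 2000 UMIs, in 35.5% ± 13.2, against 0 of 227 macrophages, which allows a share of up to 1.32%. Median depths were alike, at 6738.5 to 10579 UMIs in neuronal cells and 7566 to 10314 in macrophages.

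Lhx2 was high in neuronal cells of all 4 libraries, at 268 and 402 CPM in control libraries and 543 and 327 CPM in mutant-labelled libraries. No other gate came near its neuronal mean of 385 ± 119 CPM (SD, n = 4). The next level was that of keratinocyte-type epithelium at 22.1 ± 18.6 CPM, whose range overlapped the 7.36 CPM of the remaining and the 5.88 CPM of the olfactory-type epithelial cells. Endothelial, macrophage and glial cells had 0 UMIs. Lhx2 exceeded its mesenchymal level by 8.35 ± 0.36 and its epithelial level by 4.22 ± 0.31 on the log2 scale (SE, edgeR adjusted p 2.92e-10 and 1.73e-07). Mesenchyme, with 73 UMIs, could not bring Lhx2 into the first test, so that the filter set its direction. Nor could epithelium, at 0.716 CPM in control 2, bring it into the second without the neuronal level, so that the filter bore there too.

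Otx2 had a different distribution. Its mean was 232 ± 93.9 CPM (SD, n = 4) in olfactory-type epithelial cells, 191 ± 88.2 in neuronal cells and 156 ± 78.2 in the remaining epithelial cells, levels whose ranges overlap, and 25.3 ± 7.15 CPM in keratinocyte-type cells, apart from all of these. Mesenchyme had 0.292 CPM, and macrophage, glial and muscle cells had 0. By share of cells the order was clearer, with a UMI in 77.8% ± 7.67 of olfactory-type epithelial cells and in 23.0% ± 6.98 of neuronal cells (SD, n = 4). Library medians ran from 11188 to 15898.5 UMIs in the first set and from 6738.5 to 10579 in the second, and after thinning the shares were 33.0% ± 23.6 and 14.1% ± 11.2.

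Neuronal cells with Otx2 were few and large. The 28 such cells had a median of 46294 UMIs, against 6833 UMIs in the 86 neuronal cells without it, and 27 of the 28 also passed the epithelial gate. In 3 libraries with enough cells they carried Cyp2g1, an enzyme of olfactory supporting cells, at 114 to 254 CPM against 0 CPM in the others. The glutathione transferase Gstm1 (mean 2507 against 9.61 CPM) and the simple keratin Krt18 (553 against 20.9 CPM) were higher too. Krt18 is itself a marker of the epithelial gate, which only 41 of the 86 cells without Otx2 passed. Elavl4, a neuronal RNA-binding protein and gate marker, was lower in the cells with Otx2, at 25.9 to 144 against 516 to 893 CPM. Without the cells that pass both gates, Otx2 in neuronal cells fell to 47.6 CPM in control 1 and to 0 in the other libraries. Removing the highest Scrublet scores took only 1 of the 28 cells. The part of 2 cells under 1 barcode in these values was not tested.

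Ebf1, Ebf2 and Ebf3 shared a peak in neuronal cells and differed outside it. Ebf1 was at 1229 and 1734 CPM in neuronal cells of control libraries and at 2563 and 1113 CPM in those labelled mutant, a mean of 1659.9 ± 659.6 (SD, n = 4). Mesenchymal cells followed at 738 ± 70.4 CPM, endothelial cells at 405 ± 61.0 and olfactory-type epithelial cells at 198 ± 67.4, each apart from the next. Glia, the remaining epithelium and muscle overlapped in turn from 91.0 to 14.6 CPM, and keratinocyte-type epithelium had 3.61 CPM, apart from the 1.33 CPM of macrophages. Mesenchyme was so numerous that it gave 55416 of the 66380 Ebf1 UMIs, or 83.5%, while neuronal cells gave 4.32%.

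Ebf2 was at 548 and 593 CPM in control and at 1255 and 585 CPM in mutant-labelled neuronal cells, with a mean of 745 ± 341 CPM, then at 48.1 ± 4.25 in mesenchyme and 20.3 ± 10.9 in olfactory-type epithelial cells (SD, n = 4). Ebf3 was at 315 and 348 against 718 and 322 CPM in neuronal cells, a mean of 426 ± 195 CPM. Endothelial cells were next at 160 ± 36.5 CPM and overlapped mesenchyme at 103 ± 25.1, and muscle, at 45.5 ± 16.3, stood apart from both its neighbours. For all 3 genes mutant 1 had the highest neuronal level of the 4 libraries.

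**Figure D1:**
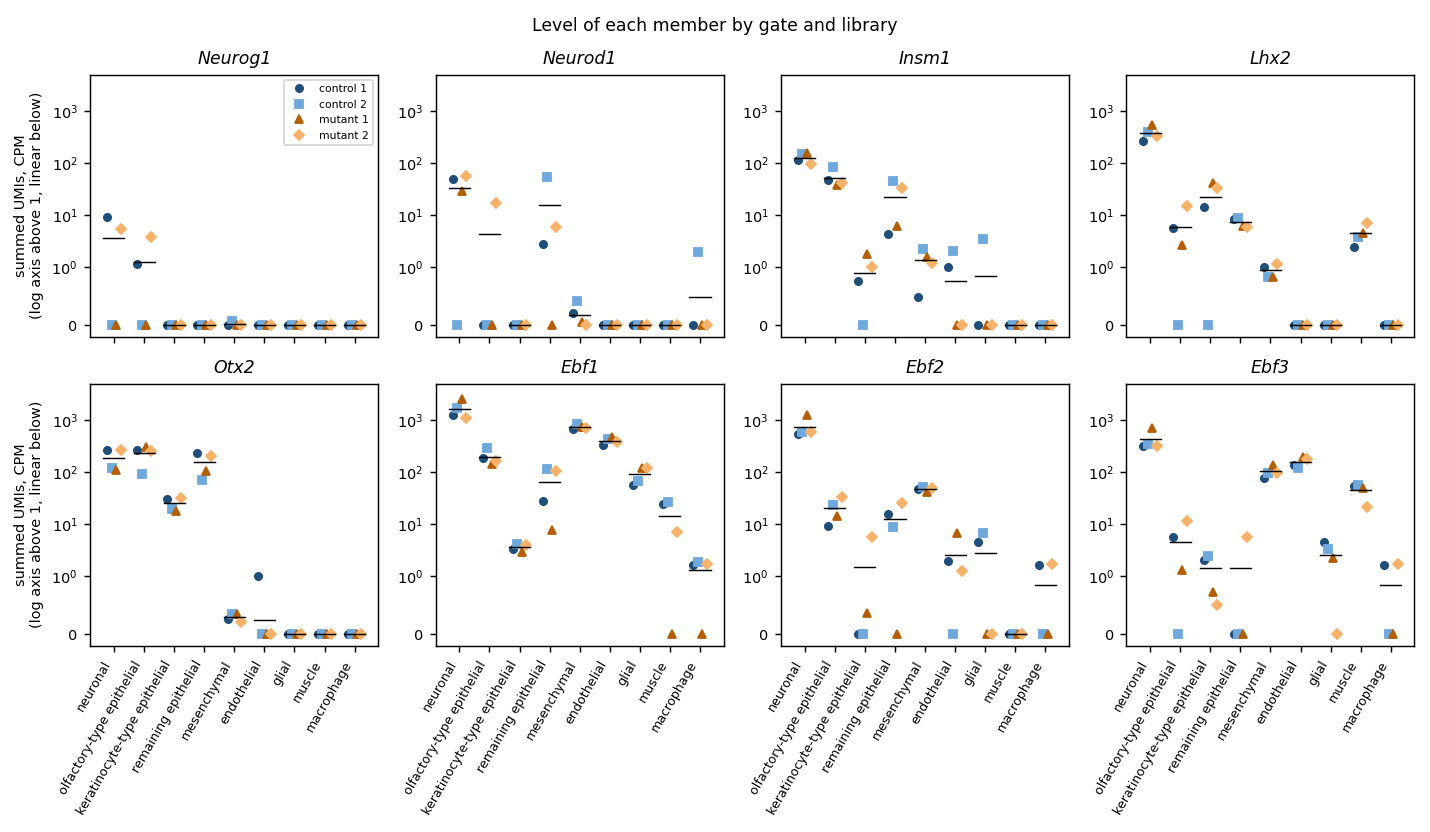
Level of each of the 8 factors in CPM of summed UMIs (vertical axis, logarithmic above 1 and linear below) in 9 groups of cells (horizontal axis). Each symbol is 1 library and each bar the mean of 4 libraries; Lhx2 stands out in neuronal cells at 385 CPM, Otx2 is shared by neuronal, olfactory-type and remaining epithelial cells, and Ebf1 reaches 738 CPM in mesenchyme.

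Gates were compared within libraries on summed counts with edgeR, with the library as a block. Between neuronal and mesenchymal cells, Neurod1, Otx2, Insm1 and Lhx2 entered the test through other gates alone, so that the filter set their direction. They had 12, 22, 97 and 73 UMIs in all of mesenchyme. Ebf1, Ebf2 and Ebf3 also passed the filter by their mesenchymal levels and were higher in neuronal cells, a direction called for 21.8% of the 13778 genes tested. The differences on the log2 scale (SE) were 9.09 ± 0.32 for Otx2, 6.39 ± 0.29 for Insm1, 3.66 ± 0.31 for Ebf2, 1.77 ± 0.19 for Ebf3 and 0.89 ± 0.21 for Ebf1, beside those of Lhx2 and Neurod1 above. The smallest, that of Ebf1, had an adjusted p of 0.00301. The same 7 were called higher in neuronal than in epithelial cells, where 14.1% of genes were, from 1.09 ± 0.21 for Otx2 (adjusted p 0.00131) to 7.42 ± 0.29 for Ebf3 (adjusted p 8.77e-10). Neurod1 and Lhx2 could not have entered this test without their neuronal levels, so that the filter bore on their direction. Ebf2 and Ebf3 could not have entered by epithelial levels alone, but their mesenchymal levels also passed the filter. Ebf3, with 29 epithelial UMIs, was too low to be tested within epithelium. The Otx2 call rests on the cells that pass both gates. Without them neuronal Otx2 was at 47.6 CPM in control 1 and 0 in the other 3 libraries, below the epithelial level of the same library in every case (94.6, 28.7, 84.7 and 102 CPM), on 7 to 17 neuronal cells each.

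Epithelial and mesenchymal cells divided the 7 factors. Neurod1, Otx2, Insm1 and Lhx2 again entered through gates other than mesenchyme, and Ebf3 through gates other than epithelium. Ebf2, at 2.15 CPM in epithelial cells of control 2, could not have entered through epithelium alone either. Higher in epithelium were Otx2 by 8.0 ± 0.30, Lhx2 by 4.13 ± 0.39, Neurod1 by 3.09 ± 1.08 and Insm1 by 2.96 ± 0.30 on the log2 scale (SE), a direction called for 25.3% of genes. Lower in epithelium, a direction called for 28.0% of genes, were Ebf3 by a log2 difference of -5.65 ± 0.29, Ebf1 by -4.34 ± 0.25 and Ebf2 by -3.18 ± 0.39. The Neurod1 call, at an edgeR adjusted p of 0.026, was lost without mutant 2, with a log2 difference of 1.89 and an adjusted p of 0.279.

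Other genes of the lineage gave the setting. Of 12 progenitor factors, 10 were tested and 10 were higher in neuronal than in mesenchymal cells, with a median log2 difference of 4.37 against -0.08 over all genes. Genes low in mesenchyme or epithelium could enter through the neuronal gate alone, so the counts of these lists are a description. Among them were Fezf1 (7.56 ± 0.43) and Pax6 (7.28 ± 0.30). Against epithelial cells the same list split, with Emx2 (4.81 ± 0.35) and Fezf1 (1.67 ± 0.32) among those higher and the Notch effector Hes1 (-1.73 ± 0.25) lower, a direction called for 15.4% of all genes, and a median of 0.45 against -0.09. Of 11 further neuronal factors, 9 were tested and 7 were higher in neuronal than in epithelial cells, led by the helix-loop-helix factors Nhlh2 (8.14 ± 0.49) and Nhlh1 (7.27 ± 0.51), with Meis2 lower by -1.46 ± 0.23. Of 13 tested products of olfactory neurons, 12 were higher too, among them Omp, the marker of mature neurons (8.40 ± 0.75), and Gng8, a G protein subunit (7.95 ± 0.37).

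Among cofactors, 3 of 12 were higher and 4 were lower in neuronal than in mesenchymal cells, with a median of -0.01. Over all genes 21.8% were called higher and 24.3% lower, so these counts lie near the background. The lower ones included Zfp521 (-3.16 ± 0.23) and Zfp423 (-0.94 ± 0.20), zinc finger proteins that bind Ebf factors, and the E-proteins Tcf4 (-0.98 ± 0.14) and Tcf12 (-0.83 ± 0.14), partners of proneural factors. Higher were Id1 (1.08 ± 0.15), an inhibitor of helix-loop-helix factors, Kdm1a (0.72 ± 0.12) and Rcor2 (0.68 ± 0.27), parts of a corepressor complex that Insm1 recruits. Zfp423 was in turn 2.77 ± 0.27 higher in neuronal than in epithelial cells. Ldb1, the partner of LIM homeodomain proteins such as Lhx2, did not pass the test in either comparison, with differences of 0.26 and -0.15.

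The order in which the factors appear was described by the number of neuronal gate markers detected in the 226 olfactory-type cells. There were 110 cells with 0 to 1 such marker, 26 with 2 to 3, 17 with 4 to 5 and 73 with 6 or more. Deeper cells show more markers, and median depths in these bins were 12838.5, 18030.5, 5180 and 9327 UMIs. Otx2 was in 80.9% and 80.8% of cells of the first 2 bins and in 29.4% and 27.4% of the last 2, and after thinning in 46.3% of the first and 16.9% of the last. Its CPM of 278, 258, 317 and 215 did not follow. In the neuronal gate a single cell gave 90.9% of the Otx2 UMIs of control 2 and 76.2% of those of mutant 1.

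Insm1, Ebf1 and Ebf2 were already higher in the second bin than in the first. So were Neurod1 and Lhx2 at lower levels, and the bins give no order among these genes. Insm1 went from 27.5 to 96.6, 104 and 142 CPM, Ebf1 from 83.0 to 458, 689 and 1810.7 CPM, and Ebf2 from 7.60 to 49.3, 358 and 873 CPM. Neurod1 was at 0.584, 15.2, 57.4 and 46.2 CPM. Lhx2 was at 5.26 and 11.4 CPM in the first 2 bins, at 175 in the third and at 457 in the last, and Ebf3 at 5.26, 5.68, 139 and 505 CPM. The share of cells with at least 2 of 10 cell cycle genes was 55.6%, 80.8%, 53.3% and 9.86% over the 4 bins after thinning. The 17 cells of the third bin fell to 6, 2, 2 and 7 per library, too few to compare libraries within it.

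**Figure D2:**
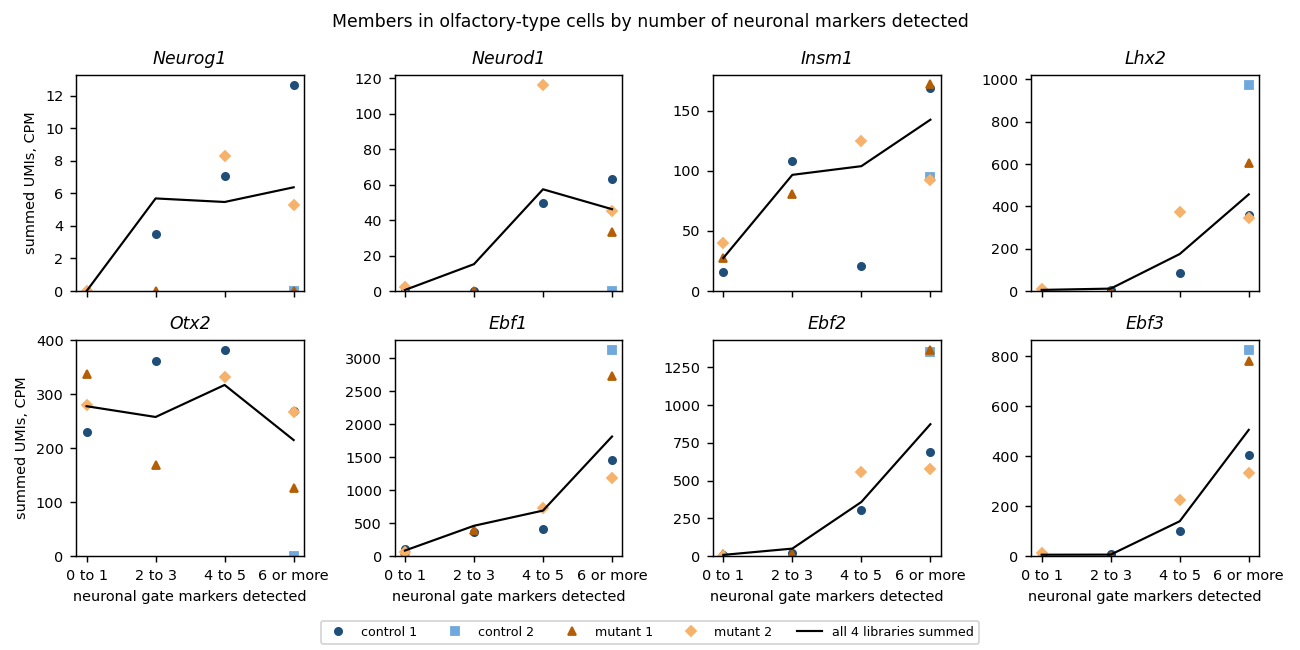
Level of each factor in CPM of summed UMIs (vertical axis) in the 226 olfactory-type cells, grouped by the number of neuronal gate markers detected (horizontal axis). The line joins the sums over 4 libraries and symbols are single libraries with at least 5 cells in a bin. Insm1, Ebf1 and Ebf2, and at lower levels Neurod1 and Lhx2, are higher in the second bin than in the first. Lhx2 and Ebf3 stand at 175 and 139 CPM in the third.

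After thinning, Otx2 and Lhx2 were rarely found in the same cells. Without thinning, 23 of the 28 neuronal cells with Otx2 also had Lhx2, as did 62 of the 86 without Otx2. Those Otx2 cells had a median of 46294 UMIs, so that thinning removed most of their UMIs. In the 220 olfactory-type cells with at least 2000 UMIs, all thinned to that number, 50 cells had Lhx2, and 47 of them (94.0%) also had Ebf1, 45 (90.0%) Ebf2 and 41 (82.0%) Ebf3, but only 3 (6.0%) Otx2. Of the 170 cells without Lhx2, 68 had Otx2 and 46 (27.1%) Ebf1. The 71 cells with Otx2 had Ebf1 in 18.3%, Insm1 in 9.86% and Lhx2 in 4.23%. All 3 cells with Neurog1 also had Neurod1, Lhx2 and the 3 Ebf genes, and none had Otx2, while 12 cells had Neurod1. These are shares of cells, and cells of 1 library are no replicates.

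After thinning, 50.7% of Otx2 cells (36 of 71, exact 95% binomial interval 38.6% to 62.8%), 37.5% of Insm1 cells (18 of 48) and 31.2% of Ebf1 cells (29 of 93) had at least 2 of the 10 cycle genes. The corresponding shares were 11.4% of Ebf2 cells (8 of 70), 10.0% of Ebf3 cells (6 of 60) and 8.0% of Lhx2 cells (4 of 50, interval 2.22% to 19.2%). Neurod1 cells were 5 of 12 (interval 15.2% to 72.3%). These intervals cover counting error only.

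**Figure D3:**
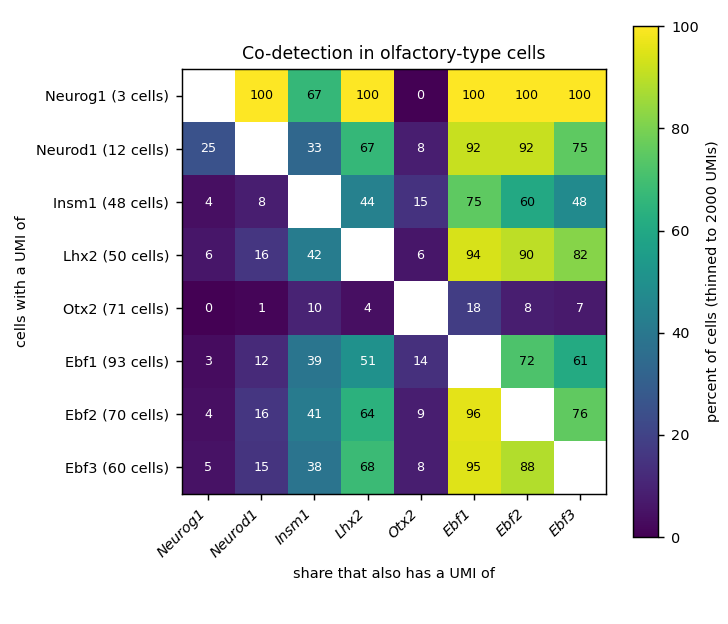
Percent of olfactory-type cells with a UMI of the row's gene that also held a UMI of the column's gene, with each cell thinned to 2000 UMIs and the number of cells in the row label. Cells with Lhx2 hold Ebf1, Ebf2 and Ebf3 in 94.0%, 90.0% and 82.0%, whereas 6.0% of them hold Otx2.

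Genes most alike in pattern were found by Pearson correlation of log2(CPM + 1) over 31 sums per library and gate, among 10566 genes at 20 CPM or more in at least 1 gate. The sums share their libraries and depths, and the values are a description. Closest to Otx2 were Dmrt3 (0.99), Otx2os1 (0.99) and the olfactory gate gene Pax6 (0.99). Otx2os1 overlaps Otx2 on the opposite strand, so that this value may hold shared reads. Closest to Insm1 were Nfasc (0.95), Prr36 (0.95) and Gad2 (0.94), and to Lhx2 Ckmt1 (0.93), Ccdc187 (0.91) and Brinp2 (0.91).

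Ebf2 was nearest to 4930438E09Rik (0.94), which overlaps it on the opposite strand, and to the gate markers Snap25 and Stmn2 (0.93 each). The nearest genes to Ebf1 were Selenom (0.88), Efr3b (0.85) and Fam13c (0.83), and to Ebf3 Hecw2 (0.87), Fam155a (0.85) and Impdh1 (0.80). Neurod1 was nearest to Tstd1 (0.88), Olig1 (0.82) and Chga (0.81), and Neurog1 to Neurod1 (0.79), Aqp5 and Abca13 (0.71 each), the last on 17 UMIs.

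In mesenchyme the Ebf genes marked overlapping sets of cells. After thinning, Ebf1 was found in 45.9% ± 2.27 of mesenchymal cells, Ebf3 in 14.3% ± 2.43 and Ebf2 in 5.87% ± 0.54 (SD, n = 4), against 0 of 212 macrophages for Ebf1 and for Ebf3 and 1 of 212 for Ebf2. Of the 591 cells with Ebf2, 71.6% also had Ebf1, which was present in 44.2% of those without. Likewise 68.4% of the 1434 Ebf3 cells had Ebf1, against 42.0% of the rest.

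Mesenchymal cells with at least 5 Ebf1 UMIs were compared with those that had none, within each library and with thresholds chosen after the values were seen. In all 4 libraries they had more Dlk1, an imprinted inhibitor of adipogenesis (mean 1078 against 195 CPM), and more Gfra1, a receptor for GDNF (83.6 against 8.70 CPM), as well as more Ebf3 (194 against 34.3 CPM) and Ebf2 (84.5 against 16.3 CPM). They had less Ibsp, bone sialoprotein (66.3 against 833 CPM), and less Nkd1 and Apcdd1, Wnt feedback inhibitors (42.1 against 124 and 60.9 against 183 CPM). Ebf3 cells with at least 2 UMIs had less Runx2, the osteoblast master factor (114 against 319 CPM), and again less Ibsp (27.7 against 741 CPM). In Ebf2 cells with at least 2 UMIs, Abcc9 (56.8 against 5.96 CPM) and Rgs5 (69.5 against 8.35 CPM), genes of mural cells, and Igf1 (498 against 117 CPM) were higher. Cells with more of an Ebf gene were deeper, for Ebf1 with medians of 5889 to 8997 against 4827 to 7933 UMIs, and the part of depth was not tested.

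Insm1 UMIs also occurred in mesenchyme. There were 77 such cells, 10 and 25 in control libraries and 22 and 20 in mutant-labelled libraries, which is 0.819% ± 0.42 of mesenchymal cells (SD, n = 4). The share was no higher than the 1.36% of endothelial (2 of 193 cells), 0.930% of keratinocyte-type (8 of 740) and 0.833% of glial cells (1 of 142), while macrophages had 0 of 227. Mesenchyme gave 18.8% of all Insm1 UMIs. Compared with other mesenchymal cells, they had more Sox21 (99.4 against 8.22 CPM), Ndst3 (315 against 55.4 CPM), Sp9 (136 against 22.4 CPM), Sostdc1, an inhibitor of Wnt and BMP signals (932 against 215 CPM), and agouti, the pigment-type switch of the hair papilla (426 against 81.4 CPM). Only 12.9% of them had Ebf1 after thinning (4 of 31), against 45.9% of other mesenchymal cells, and Ibsp (9.53 against 531 CPM) and Acta2 (1.17 against 77.4 CPM) were lower. The CPM values are means over the 4 libraries and were not tested.

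Lhx2 was also found in keratinocyte-type epithelium, which gave 234 of the 263 epithelial UMIs. It was found in 14 of 235 such cells (5.96%) and 0 of 93 in the control pair, and in 31 of 204 (15.2%) and 22 of 208 (10.6%) in the mutant pair. The 0 of control 2 allows a share of up to 3.23%. In the 3 libraries that had them, these cells had more Plcl1 (332 against 30.3 CPM), Pthlh, a parathyroid hormone-like signal (320 against 31.0 CPM), and Nfatc1, a factor of hair follicle stem cells (124 against 8.25 CPM). Genes of ciliated cells were also among the 12 most raised, namely Cdc20b (144 against 12.4 CPM), Deup1 (81.9 against 2.65 CPM) and Tekt1 (80.2 against 6.69 CPM). Of the 67 cells with Lhx2, 4 held at least 2 genes of a ciliated-cell list (Foxj1, Deup1 and others), with 4 of the 234 Lhx2 UMIs. That list leaves out Cdc20b and Tekt1, and the share in cells without Lhx2 was not counted. The part of ciliated cells in these values was not tested. The cells with Lhx2 had less of the suprabasal keratins Krt10 (58.5 against 639 CPM) and Krt1 (26.1 against 449.5 CPM).

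Mutant and control libraries were then compared for each gate, which addresses whether the factors of olfactory neurogenesis differ when Yap and Taz are targeted in the neural crest. In neuronal cells 0 of the 7 factors tested passed the edgeR threshold of 0.05, where 0.0% of 7706 genes did (176 at an unadjusted p under 0.05, and 0 by DESeq2). The fitted log2 changes (SE) were 0.44 ± 0.66 for Neurod1, -0.05 ± 0.42 for Insm1, 0.36 ± 0.44 for Lhx2, -0.05 ± 0.50 for Otx2, 0.27 ± 0.46 for Ebf1, 0.66 ± 0.44 for Ebf2 and 0.61 ± 0.45 for Ebf3. Control and mutant levels overlapped for all 7, while 26.7% of genes did not overlap. Without mutant 1, which had the highest neuronal level of Lhx2, Ebf2 and Ebf3, their changes were 0.03, 0.08 and 0.01, and that of Lhx2 was also 0.03 without control 1. Genes called numbered 82, 29, 54 and 0 without control 1, control 2, mutant 1 and mutant 2 in turn, with no factor among them. On simulated data with the depths of this gate the test found 83.2% of 4-fold changes. The simulation used 1 spread set in advance and changed only genes above a count floor. It does not show what share of real changes would be found in these libraries.

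The olfactory-type cells, which include progenitors, were compared next. None of the 7 factors tested passed, where 0.00991% of genes did (1 of 10094, 380 at an unadjusted p under 0.05, and 0 by DESeq2). Lhx2 was at 127 and 279 against 192 and 178 CPM, Otx2 at 282 and 116 against 249 and 270 CPM, and Ebf1 at 616 and 1248 against 963 and 606 CPM. Insm1 did not overlap between groups, at 83.1 and 132 CPM in control libraries and 78.5 and 70.1 CPM in mutant-labelled libraries, and neither did 33.9% of all genes tested here. Its change on the log2 scale was -0.44 ± 0.29 (edgeR adjusted p 1.0). Without control 1 Neurod1 passed, at a fitted 7.28 and an adjusted p of 0.0352, with control 2 at 0 UMIs as the only control left and 330 genes called in all, against 53, 63 and 63 without the other libraries. Immediate early and heat shock genes moved with the groups here: the 9 such genes summed to 2440.4 and 1364 CPM in control libraries and 3911 and 3123 CPM in mutant-labelled libraries. The 8 respiratory epithelial genes in these cells summed to 147 and 15.5 CPM in control libraries, with 2 and 5 of the 8 at 0, and to 1989.6 and 515 CPM in mutant-labelled libraries, with 0 of 8 at 0. The part of both lists in the values was not tested.

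**Figure D4:**
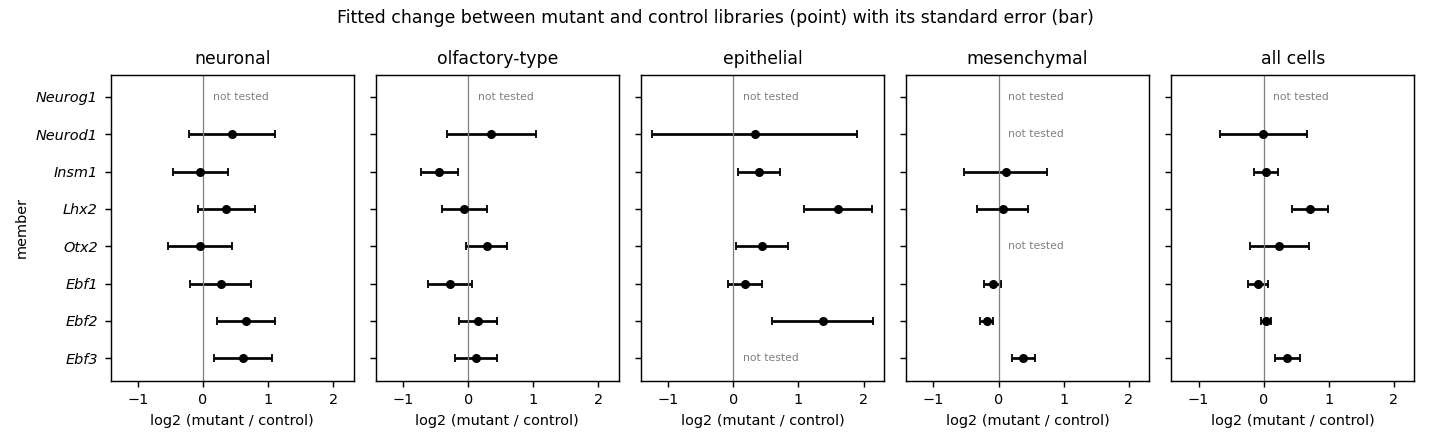
Log2 change of each factor between mutant and control libraries (horizontal axis) in 5 sets of cells, as fitted by edgeR on 2 against 2 libraries, with bars of 1 standard error and the factors down the vertical axis. No point passed the adjusted threshold; Lhx2 in epithelial cells lies farthest from 0 at 1.61.

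In the epithelial gate 0 of the 6 factors tested passed, where 0.0% of 12643 genes did (587 at an unadjusted p under 0.05, and 4 by DESeq2). Lhx2 was at 12.2 and 0.716 CPM in control libraries and at 28.9 and 24.9 CPM in mutant-labelled libraries, without overlap, which is 1.61 ± 0.53 on the log2 scale (unadjusted p 0.0196, edgeR adjusted p 0.898). Insm1 did not overlap either, at 8.35 and 8.60 against 9.17 and 13.6 CPM, with a change of 0.39 ± 0.32. These are 2 of the 6 factors, and 38.6% of all genes tested here did not overlap. Lhx2 passed without a filter on low counts (1.61 ± 0.27, adjusted p 2.05e-06, 332 genes called), without control 1 (5.10, adjusted p 0.000365, 841 genes called) and without control 2 (1.15, adjusted p 0.0413, 45 genes called). Most of these UMIs came from the keratinocyte-type cells described above. Otx2, at 94.6 and 28.7 against 84.7 and 102 CPM, changed by 0.44 ± 0.40 and passed without control 1 alone (1.63, adjusted p 0.000755), where control 2 is the only control left. Respiratory epithelial genes (Bpifa1, Cbr2, Cyp2f2 and others), 8 in all, summed to 458 and 53.7 CPM in control libraries, with 0 and 3 of the 8 at 0, and to 1816 and 1267 CPM in mutant-labelled libraries, with 0 of 8 at 0. The makeup of the epithelial gate thus moved with the groups, and its part in the Lhx2 and Otx2 values was not tested.

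In mesenchyme, the tissue that Sox10-Cre may reach through the neural crest, 0 of the 5 factors tested passed, where 0.0% of 16241 genes did (1172 at an unadjusted p under 0.05, and 49 by DESeq2). Ebf1 was at 667 and 832 against 743 and 709 CPM, with a log2 change of -0.09 ± 0.13, and Ebf2 at 48.4 and 52.5 against 42.3 and 49.0 CPM, with -0.18 ± 0.11. Ebf3 was at 78.9 and 98.3 against 139 and 98.1 CPM, with 0.38 ± 0.18 and an adjusted p of 0.718, so that mutant 1 alone was higher. Without a filter on low counts Ebf3 passed at the same 0.38, with an adjusted p of 0.0361 and 539 genes called. Insm1 and Lhx2 lay between 0.477 and 2.21 CPM in every library. Groups overlapped for all 5 factors, while 40.7% of genes did not overlap, and Neurod1 and Otx2 were too low to test. Without control 1, control 2, mutant 1 and mutant 2 in turn, 313, 0, 5 and 26 genes were called and no factor was.

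Over all cells, where fewer cells of a type and less RNA per cell cannot be told apart, 0 of 7 factors tested passed and 0.0% of 18080 genes did (883 at an unadjusted p under 0.05, and 30 by DESeq2). Lhx2 was at 9.76 and 5.21 against 13.4 and 12.2 CPM, without overlap, which is 0.71 ± 0.28 on the log2 scale (unadjusted p 0.048, edgeR adjusted p 0.909). Ebf2 did not overlap either, at 50.9 and 49.8 against 52.1 and 53.7 CPM, but its log2 change was 0.03 ± 0.074. These are 2 of the 7 factors, and 37.9% of all genes tested did not overlap. Otx2 was at 23.3 and 7.69 against 19.2 and 19.0 CPM. Without control 1, Lhx2 (1.24, adjusted p 0.0307) and Otx2 (1.26, adjusted p 0.0174) passed among 410 genes, with control 2 as the only control.

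Control 2 held a further source of Otx2. It had 14 cells with at least 3 of 7 choroid plexus genes (Htr2c, Kcne2, Folr1, Clic6 and others), a list added after the values were seen, and 13 of these were in no gate. They carried 56 of the 152 Otx2 UMIs of control 2 (36.8%) and 5864 of its 6439 UMIs of Ttr, the transthyretin gene that choroid plexus makes. The other libraries had 2, 3 and 0 such cells. Both of those in control 1 were neuronal-gate cells, whose number fell from 43 to 41 without them, and held 54 Otx2 and 0 Ttr UMIs. Without all cells that met the rule, Otx2 over all cells was at 21.9 and 4.89 CPM in control libraries and 18.3 and 19.0 CPM in mutant-labelled libraries. Without the ungated ones alone it was at 23.3 and 4.89 against 18.6 and 19.0 CPM.

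The difference of the mutant effect between neuronal and mesenchymal cells was tested as an interaction. None of the 7 factors tested passed, where 0.114% of 15813 genes did (18 genes). The unadjusted p of Neurod1 was 0.0114, on a handful of mesenchymal UMIs, and its adjusted p was 1.0.

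The olfactory-type rule used Pax6 and other genes of these lists. Genes of the lineage also gave no call between mutant and control in neuronal cells. Of the progenitor factors, 0 of 10 tested passed, with a median log2 change of -0.17 against 0.01 over all genes. Neuronal factors had 0 of 8 and a median of 0.29, with Atf5 and Nhlh1 at 1.03 each. Atf5 was at 481 and 272 against 1140.5 and 451 CPM, with overlap. Among products of olfactory neurons 0 of 11 passed, with a median of 0.50, Gng13 at 1.24 ± 0.55 and Adcy3 at 0.87 ± 0.58. Gng13 was at 183 and 185 against 741 and 157 CPM, so that mutant 1 alone was higher. Notch genes (0 of 4, median -0.30, Jag1 at -0.67 and Notch1 at -0.42) and cofactors (0 of 12, median -0.24, Id2 at -1.32 and Id3 at -1.05) gave none either. Id2 was at 328 and 555 against 159 and 194 CPM, and Id3 at 541 and 761 against 175 and 446 CPM. These 2, Nhlh1, Adcy3 and Jag1 did not overlap between groups, and neither did 26.7% of all genes tested in neuronal cells. They are named as the farthest from 0 in their lists.

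The numbers of gated cells gave no basis for a difference. Neuronal cells were 1.06% and 0.485% of control libraries and 0.968% and 0.715% of mutant-labelled libraries (exact permutation p 1.0, two-sided), and olfactory-type cells were 1.87% and 0.606% against 2.27% and 1.60% (exact permutation p 0.67). The smallest p that 2 against 2 libraries allow is 0.33.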

How the data were processed

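Whole noses at embryonic day 14.5, 2 control and 2 mutant-labelled, gave 4 count tables of UMIs per gene and cell. Per the file headers the deposited counts were made by the authors with Cell Ranger 8.0.1; the submitters' processing notes list Cell Ranger 4, Seurat 4.3.0 and mm10, and the 2 sources disagree. More than 1 sequencing provider is named without saying which library each read, so batch was not tested, and a further sample in the protocols was not analysed here. A cell was retained with 500 detected genes or more and a mitochondrial share of UMIs of 10% or less. Doublets were kept in the main values; ranking by Scrublet (scanpy 1.11.5) was an alternative.

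Counts were summed per library and gate (at least 10 cells) and tested with edgeR 4.0.16 in R 4.3.3 (TMM, quasi-likelihood, filterByExpr), p-values adjusted by Benjamini-Hochberg over all genes tested, threshold 0.05. DESeq2 1.42.0, other filters, gates and cells, the replicate block and leaving out each library were alternatives. Gate contrasts had the library as a block. On simulated counts with 4-fold changes 83.2% were recovered in the neuronal fit (7688 genes) and 91.8% in the mesenchymal fit (16235 genes). Both simulations used 1 spread set in advance, not that of these libraries, and changed only genes above a count floor. The 8 factors and the lists were chosen with earlier results of these data known. The genes named are the 8 factors, the 3 genes most alike to each, and, in a list, genes that passed (by size) or else the 2 farthest from 0, leaving out folds against a gate at 0; further companions were named after their values were seen. Some genes that this rule would name are not reported here. Cells with a UMI were thinned to 2000 UMIs for shares across depths. Totals were 20170229 to 35887490 UMIs per library.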

Additional observations from a re-analysis of the deposited data

How the results depend on the processing

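Genes past the edgeR threshold between mutant and control were 63 in neuronal, 332 in epithelial, 539 in mesenchymal, 116 in olfactory-type and 10 in all cells without a filter on low counts, among them 0, 1, 1, 0 and 0 of the 8 factors. DESeq2 gave 4 in epithelial, 49 in mesenchymal, 0 in olfactory-type and 30 in all cells. Looser gates gave 1 in neuronal cells. In olfactory-type cells stricter cell filters, ranked doublets removed, stricter gates and leaving out cells that pass both gates gave 0 each. The replicate numbers are shared between groups, and same-numbered deviations correlated at -0.0567 to 0.0653 over 5 sets of cells. With 2 libraries a group this cannot exclude a pairing, and the main tests used none. With the replicate block 0, 2, 19, 2 and 0 genes passed in neuronal, epithelial, mesenchymal, olfactory-type and all cells, and 0 factors.

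Directions that reversed were, for Insm1 in neuronal cells, 0.03 with stricter and 0.37 with looser gates, for Neurod1 in epithelial cells -0.19 with DESeq2 and -0.53 with the replicate block, for Insm1 and Ebf1 in epithelial cells -0.08 and -0.06 with looser gates, for Lhx2 in olfactory-type cells 0.23 with looser gates and 0.81 without cells of both gates, and for Otx2 there -0.05 with looser gates. Thinning to 2000 UMIs lowered neuronal shares to 35.5% for Insm1, 47.2% for Lhx2, 14.1% for Otx2, 66.9% for Ebf2 and 58.3% for Ebf3. Causes were not tested.

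Leaving out 1 library at a time, genes called ranged from 0 to 82 in neuronal, 0 to 841 in epithelial, 0 to 313 in mesenchymal, 53 to 330 in olfactory-type and 0 to 410 in all cells, from 2602 to 3942 between neuronal and epithelial cells and from 15 to 41 for the interaction. Factors called ranged from 0 to 2 in epithelial, 0 to 1 in olfactory-type and 0 to 2 in all cells. A lone remaining library is assumed to vary like the others. Log2 changes in neuronal cells ranged from -0.22 to 7.03 for Neurod1, -0.33 to 0.20 for Insm1, -0.97 to 0.63 for Otx2 and -0.37 to 0.70 for Ebf1. In epithelial cells they ranged from -1.32 to 1.25 for Neurod1, -0.03 to 1.63 for Otx2, -0.22 to 0.53 for Ebf1 and -0.06 to 2.16 for Ebf2. In mesenchymal cells they ranged from -0.70 to 1.50 for Insm1, -0.18 to 0.27 for Lhx2 and -0.24 to 0.08 for Ebf1. In olfactory-type cells they ranged from -0.82 to 7.28 for Neurod1, -0.68 to 0.55 for Lhx2, -0.11 to 1.08 for Otx2, -0.76 to 0.35 for Ebf1, -0.24 to 0.52 for Ebf2 and -0.33 to 0.50 for Ebf3. Over all cells they ranged from -0.03 to 0.10 for Insm1, -0.32 to 1.26 for Otx2 and -0.29 to 0.15 for Ebf1. The difference in the share of neuronal cells ranged from -0.214 to 0.357 percentage points. Stricter cell filters, and leaving out cells of both gates, were not run for neuronal cells because a library would keep under 10 cells. In control 2, with 12 neuronal cells, 0 cells with a UMI allow a share of up to 25.0%.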
